A study of Mus musculus with 20 samples.

Results

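The nicotinic acetylcholine receptor of muscle and the genes that build and hold the neuromuscular junction around it were followed in plantaris muscles of mice, 10 genes in all out of 54532 genes counted, of which 30194 had at least 1 count. The genes were taken from a list of names, namely the receptor subunits Chrna1, Chrnb1, Chrnd, Chrne and Chrng, the receptor kinase Musk with its partners Lrp4 and Dok7, the anchoring protein Rapsn, and the adhesion molecule Ncam1. All 10 were found by symbol and all 10 passed the filter on low counts in every comparison. RNA-seq was carried out on 20 plantaris libraries from male C57BL/6J mice aged 5 months, collected 10 days after surgery. The sham and the mechanical overload (MOV) groups both received lentivirus during surgery, a control virus in the left plantaris and a virus carrying a miR-1 mimic in the right. In MOV, part of the gastrocnemius and soleus is cut away so that the plantaris bears more load, and the study's methods state that the nerve to the plantaris was left in place. Each of the 4 groups, sham or MOV with control virus and sham or MOV with the mimic, had 5 libraries and is named by its surgery and virus (sham control, for example). No group was free of virus, a CMV promoter drove the insert in whichever cells the virus entered, and left and right muscles of a mouse are the control and the mimic sample of the same surgery.

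The muscle receptor is a ring of subunits that opens a cation channel when acetylcholine arrives from the motor nerve. Fetal muscle, and adult muscle that has lost its nerve or is regenerating, makes the receptor with the gamma subunit (Chrng), while the mature junction uses the epsilon subunit (Chrne) in its place. Agrin from the nerve binds LRP4, which activates the kinase MuSK with the help of DOK7, and rapsyn then clusters the receptors under the nerve ending. Chrna1, Chrnb1, Chrnd and Chrng are transcribed along the whole fibre before innervation, and electrical activity of the fibre is known to silence them outside the junction.

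Values are CPM, the counts of a gene scaled to the library total after TMM normalization, between 12036360 and 23056525 reads having been counted on genes per library. The 10 muscle fibre markers summed to between 72519 and 194401 CPM in the 20 libraries, so muscle RNA was present in each. A library stood apart by its number of low genes. In MOV mimic replicate 4, which had the lowest total, 201 of 10546 genes with a mean over 5 CPM were at under 50% of their level in every other library, against at most 35 such genes in any other library. Log2 fold changes of named genes from edgeR fits to all libraries of a comparison that include this one are given with and without it. MOV mimic replicate 5 weighed on calls. Without replicate 5, edgeR called 101 of 15332 genes (0.659%) for MOV mimic against sham mimic at an adjusted p under 0.05, against 0 with it. Its level of Myh4, a fibre marker named after its values were seen, was 36339 CPM. Sham mimic libraries ran from 18588 to 53003 CPM, and the next highest MOV library was at 22075 CPM.

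Chrna1, Chrnb1 and Ncam1 had their 5 MOV control libraries above all 5 sham control libraries, with fitted levels 1.85 to 2.71 times as high, whereas the other 7 genes (Chrnd, Chrng, Chrne, Musk, Rapsn, Lrp4 and Dok7) overlapped between these groups. These 3 genes did not pass the threshold of 0.05 on the adjusted p in the main test, edgeR's quasi-likelihood test with Benjamini-Hochberg adjustment over 14974 genes, but did in DESeq2. In the main test 0 of the 10 genes were called, and 1 gene of all those tested (0.00668%), Nos1, which is named here because it was called. DESeq2 called 3 of the 10, all higher in MOV control, against 2.62% of all genes called higher in MOV. At an unadjusted p under 0.05 in edgeR, 4 of the 10 were higher in MOV control and 0 lower, while 9.06% of all genes were higher and 9.15% lower at that threshold. Groups without overlap, MOV above sham, were seen in 3 of the 10 genes and in 2.45% of all genes. The median log2 fold change was 0.59 over the 10 genes and 0.04 over all genes tested. Fewer or more nuclei of a kind in the muscle and less or more RNA per nucleus cannot be told apart in whole muscle.

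Chrna1 encodes the alpha subunit, which carries most of the acetylcholine binding site and is present in the fetal and in the adult receptor. In GRCm38.p6 it lies at chr2:73563281-73580338. In sham control its 5 libraries were at 18.2, 40.5, 47.1, 38.4 and 21.7 CPM. In MOV control they were at 81.1, 59.3, 49.3, 104 and 106 CPM. The lowest MOV control library was just above the highest sham control library, and the groups did not overlap. The log2 fold change was 1.27 (standard error 0.29, n = 5 libraries per group), with an unadjusted p of 0.000694 and an adjusted p of 0.0630 in edgeR. DESeq2 on the same counts gave an adjusted p of 0.00194. Without sham control replicate 3, edgeR called Chrna1 too, at an adjusted p of 0.0321, and 2.81% of all genes. In the right muscles, sham mimic libraries were at 23.7, 52.5, 27.6, 21.0 and 20.1 CPM. MOV mimic libraries were at 59.1, 43.4, 44.8, 102 and 30.1 CPM. Sham mimic replicate 2 was above 3 of the 5 MOV mimic libraries, so these groups overlapped. The log2 fold change between them was 0.95 (standard error 0.33, n = 5), with an adjusted p of 0.295 in edgeR, and 0.62 without MOV mimic replicate 4, with an adjusted p of 0.468. With no library left out Chrna1 had an adjusted p of 0.123 in DESeq2. The gene was called there without sham mimic replicate 2 (1.28, adjusted p = 0.00948, with 1.32% of all genes called) and without MOV mimic replicate 5 (1.10, adjusted p = 0.0157, with 8.69% called, against 1.48% on all 10 libraries), and not with any of the other 8 libraries left out. An annotated non-coding gene, Gm30940, overlaps Chrna1, and since the strand setting of the counting is not given in the sources used here, reads of the pair may not be separable.

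Chrnb1 encodes the beta subunit, also common to both forms of the receptor, at chr11:69784036-69795966. In sham control it was at 46.4, 73.9, 77.3, 73.7 and 51.4 CPM. In MOV control it was at 106, 78.6, 90.3, 168 and 152 CPM. The groups did not overlap, though MOV control replicate 2 and sham control replicate 3 lay close together. The log2 fold change was 0.89 (standard error 0.23, n = 5), with an unadjusted p of 0.00182 and an adjusted p of 0.0762 in edgeR, against 0.0123 in DESeq2. The DESeq2 call was lost without MOV control replicate 4 (adjusted p = 0.0721) and without sham control replicate 5 (adjusted p = 0.0611). With the mimic virus, sham libraries were at 51.0, 112, 47.6, 50.9 and 56.4 CPM. MOV libraries with the mimic were at 87.9, 66.8, 102, 132 and 46.9 CPM. The lowest of all 10 mimic libraries was MOV mimic replicate 5, and sham mimic replicate 2 was above 4 of the MOV mimic libraries. The log2 fold change was 0.46 (standard error 0.29), with an adjusted p of 0.512 in edgeR, and 0.26 without MOV mimic replicate 4.

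Chrnd encodes the delta subunit, also shared by fetal and adult receptor, and lies next to Chrng at chr1:87190597-87200070. Its levels in sham control were 4.44, 3.91, 11.7, 8.57 and 1.40 CPM. In MOV control they were 19.4, 11.8, 7.62, 18.8 and 8.37 CPM. The groups overlapped, with sham control replicates 3 and 4 inside the MOV control range. The log2 fold change was 1.14 (standard error 0.46), with an unadjusted p of 0.0292 and an adjusted p of 0.218 in edgeR and an adjusted p of 0.119 in DESeq2. Sham mimic libraries were at 3.88, 12, 3.69, 5.55 and 5.61 CPM. MOV mimic libraries were at 12.4, 11.5, 7.83, 22.8 and 5.14 CPM. As for Chrna1 and Chrnb1, replicate 2 was the highest sham mimic library, and replicates 4 and 5 were the highest and the lowest of MOV mimic. This gave a log2 fold change of 0.96 (standard error 0.41), with an adjusted p of 0.347 in edgeR, and 0.59 without MOV mimic replicate 4. DESeq2 gave Chrnd an adjusted p of 0.231 on all libraries and, of 10 fits with a library left out, called it only without MOV mimic replicate 5 (1.15, adjusted p = 0.0492), the fit in which 8.69% of all genes were called.

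Chrng, the gamma subunit of the fetal receptor, ran from 0 to 15.9 CPM over the 20 libraries, while Chrne, the epsilon subunit of the adult receptor, was between 14.7 and 30.4 CPM in all but 1 of them. Chrng lies at chr1:87205811-87211835. It was at 0, 1.28, 10.8, 3.00 and 0.508 CPM in sham control. In sham control replicate 1 no read fell on Chrng, which allows up to 3 counts. In MOV control it was at 15.9, 5.97, 5.70, 8.64 and 5.29 CPM. The 5 MOV control libraries were above 4 of the 5 sham control libraries, and sham control replicate 3 lay within their range. On the log2 scale the change was 1.39 (standard error 0.82), with an unadjusted p of 0.112 and an adjusted p of 0.391 in edgeR, and an adjusted p of 0.495 in DESeq2. Without sham control replicate 3 it was 2.76, with an adjusted p of 0.0604 in edgeR and 0.0320 in DESeq2, the only 1 of 10 DESeq2 fits with a library left out that called Chrng and one in which 9.21% of all genes were called. With the mimic, sham libraries were at 0.533, 4.75, 2.12, 1.08 and 0.756 CPM. MOV mimic libraries were at 11.1, 7.60, 1.53, 12.8 and 0.127 CPM. The MOV mimic libraries ran from below the lowest sham mimic library, at 2 reads against 7, to far above the highest. MOV against sham gave a log2 fold change of 1.83 (standard error 0.87), with an unadjusted p of 0.0544 and an adjusted p of 0.381 in edgeR, and 1.46 without MOV mimic replicate 4. DESeq2 gave Chrng an adjusted p of 0.232 on all libraries and, with a library left out, called it only without MOV mimic replicate 5 (2.16, adjusted p = 0.0186), again with 8.69% of all genes called.

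Chrne lies at chr11:70614883-70619213. Its levels were 21.9, 26.7, 20, 17.9 and 18.0 CPM in sham control. In MOV control they were 23.4, 16.2, 18.2, 15.8 and 29.7 CPM. These ranges overlapped almost fully, and the log2 fold change was -0.01 (standard error 0.19, adjusted p = 0.982 in edgeR). Sham mimic libraries were at 20.1, 19.0, 18.9, 14.7 and 18.7 CPM. MOV mimic libraries were at 30.4, 19.8, 25.9, 3.03 and 25.6 CPM. Replicate 4 was far below every other library in the series, while 3 of the other 4 MOV mimic libraries were above all of sham mimic. This gave a log2 fold change of 0.21 (standard error 0.41, adjusted p = 0.856 in edgeR), and 0.49 without replicate 4, with an unadjusted p of 0.00696 and an adjusted p of 0.385. The coding gene 4930544D05Rik overlaps Chrne, so that reads between these genes may have been split or dropped by the counting.

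The share of fetal reads, Chrng reads over Chrng and Chrne reads together, sets the subunits against each other within a library, so that library size cancels. In sham control it was 0, 4.60, 35.1, 14.3 and 2.74%. In MOV control it was 40.4, 26.9, 23.9, 35.4 and 15.1%. Only sham control replicate 3 reached into the MOV control range, and the other 4 sham control libraries were below it. The share of 0 was 0 of 281 reads, with an exact 95% binomial upper bound of 1.30%, and such intervals cover counting error only. On the scale of log2 of Chrng over Chrne counts, with 0.5 added to each, the means were -4.40 ± 3.11 in sham control and -1.40 ± 0.75 in MOV control (SD, n = 5). The difference of 3.00 gave p = 0.0476 in a two-sided exact permutation test, whose smallest possible p is 0.00794, and 0.190 after adjustment over 4 comparisons. It was 1.81, with p = 0.0873 in the exact permutation test, without sham control replicate 1, and 3.88 without sham control replicate 3.

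With the mimic virus the share of fetal reads was 2.58, 20, 10.0, 6.87 and 3.90% in sham. In MOV mimic it was 26.8, 27.7, 5.58, 80.8 and 0.493%. MOV mimic replicate 4 had 173 Chrng and 41 Chrne reads, an exact 95% interval of 74.9 to 85.9%, and was the only library of the 20 with more Chrng than Chrne reads. Its high share came with both a Chrng level at the top of the group and a Chrne level below all other libraries. MOV mimic replicate 5, with 2 Chrng and 404 Chrne reads, had the lowest share outside sham control replicate 1. The mean log2 ratio was -3.72 ± 1.23 in sham mimic and -2.43 ± 3.50 in MOV mimic (SD, n = 5). The difference of 1.29 gave p = 0.468 in the exact permutation test, 0.706 after adjustment, and was 0.16 without replicate 4 and 2.51 without replicate 5 of MOV mimic. Between MOV mimic and MOV control the difference was -1.03 (p = 0.595 in the exact permutation test), and between sham mimic and sham control it was 0.68 (p = 0.706 in the same test). The former was -2.15 without MOV mimic replicate 4 and 0.20 without MOV mimic replicate 5, and the latter was -0.50 without sham control replicate 1 and 1.56 without sham control replicate 3.

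**Figure D1:**
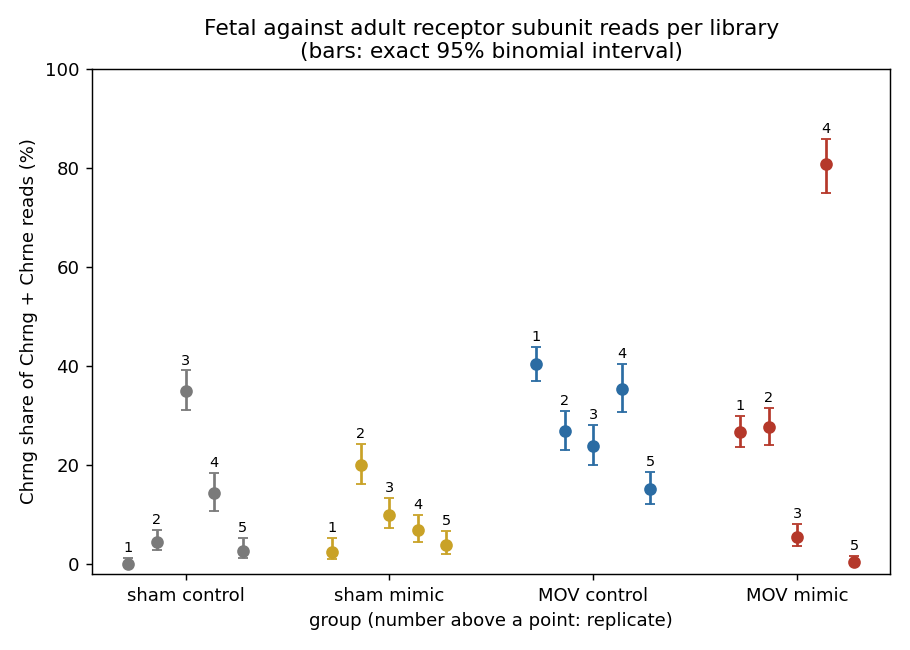
Share of Chrng reads among Chrng and Chrne reads (y axis, %, linear) in each library, by group (x axis), with the replicate number above each point. Bars are exact 95% binomial intervals, which cover counting error only; MOV control libraries lie between 15.1 and 40.4%, MOV mimic libraries between 0.493 and 80.8%.

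Per length of exon, which lets levels of different genes be set side by side, the fetal subunit stayed below the adult one in 19 of the 20 libraries. In CPM per kilobase of exon, mean Chrne was 12.4 ± 2.13 in sham control and 12.2 ± 3.49 in MOV control (SD, n = 5), while mean Chrng was 1.62 ± 2.31 and 4.32 ± 2.31. Among the 10 genes in sham control, Chrnb1 had the highest mean level per kilobase, at 25.5, followed by Rapsn at 15.4, Chrne at 12.4, Chrna1 at 7.57, Dok7 at 5.19, Musk at 2.59, Chrnd at 1.98, Chrng at 1.62, Lrp4 at 1.61 and Ncam1 at 1.45. Of these neighbours in the order, Chrnb1 and Rapsn did not overlap, nor did Dok7 and Musk, and the ranges of all other neighbours overlapped. In MOV control the order began with Chrnb1 at 47.0 and Chrna1 at 18.2 CPM per kilobase, whose ranges did not overlap, then Rapsn at 15.4, Chrne at 12.2 and Dok7 at 6.30. Below these came Chrnd at 4.34, Chrng at 4.32, Ncam1 at 3.92, Musk at 2.07 and Lrp4 at 1.45, and from Chrna1 downward each gene overlapped the next. Lengths are those of GENCODE vM1, on NCBIM37, which may differ from the annotation used for counting.

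The 3 genes of the MuSK pathway overlapped between MOV and sham with either virus. Musk, the kinase itself, was at 15.4, 6.61, 7.50, 8.03 and 11.7 CPM in sham control. In MOV control it was at 6.11, 9.84, 6.76, 6.42 and 10.2 CPM. The groups overlapped, with a log2 fold change of -0.31 (standard error 0.26, adjusted p = 0.558 in edgeR). In the mimic groups, Musk ranged from 6.43 to 17.1 CPM in sham and from 7.39 to 12.2 CPM in MOV, a log2 fold change of -0.11 (standard error 0.26, adjusted p = 0.887 in edgeR), and -0.051 without MOV mimic replicate 4. Lrp4, the agrin receptor, was between 14 and 22.5 CPM in sham control and between 6.15 and 23.1 CPM in MOV control, with a log2 fold change of -0.14 (standard error 0.28). For the mimic virus its log2 fold change was -0.20 (standard error 0.28), and -0.029 without MOV mimic replicate 4, the lowest library of the group. Overloaded muscles held both ends of the Lrp4 range in the series. The lowest values were 6.15 CPM in MOV control replicate 5 and 6.86 CPM in MOV mimic replicate 4. The highest were 23.1 CPM in MOV control replicate 2 and 22.9 CPM in MOV mimic replicate 2. Dok7, the cytoplasmic activator of MuSK, was at 24.9, 18.4, 20.5, 49.0 and 20.5 CPM in MOV control, with replicate 4 above all other libraries, and between 19.9 and 25.1 CPM in sham control. Its log2 fold change was 0.29 (standard error 0.24, adjusted p = 0.569 in edgeR), and -0.07 without MOV control replicate 4. With the mimic the log2 fold change of Dok7 was again 0.29 (standard error 0.23, adjusted p = 0.608 in edgeR), and 0.10 without MOV mimic replicate 4. Musk is annotated at chr4:58285729-58377848, Lrp4 at chr2:91457456-91513901 and Dok7 at chr5:35056571-35087839, all in GRCm38.p6.

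Rapsn, which encodes the scaffold that clusters receptors, at chr2:91035472-91045729, was between 24.1 and 32.8 CPM in sham control and between 21.9 and 41.7 CPM in MOV control, with a log2 fold change of 0.01 (standard error 0.18, adjusted p = 0.977 in edgeR). In MOV control, 4 libraries were at or below 28.4 CPM and replicate 4 was at 41.7 CPM, and without it the log2 fold change was -0.19. With the mimic it was 0.11 (standard error 0.15, adjusted p = 0.781 in edgeR), and 0.19 without MOV mimic replicate 4. The annotated Gm13778 overlaps Rapsn.

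Ncam1 encodes the neural cell adhesion molecule, which in adult muscle is concentrated at the junction and on satellite cells and spreads over fibres without a nerve. It is annotated at chr9:49502129-49799393, where the non-coding Gm11149 overlaps it. In sham control Ncam1 was at 4.98, 14.4, 21.8, 22.4 and 9.78 CPM. In MOV control it was at 50.8, 30.8, 23.8, 61.4 and 31.3 CPM. The groups did not overlap, and the lowest MOV control library lay close above the highest sham control library. On the log2 scale the change was 1.44 (standard error 0.38, n = 5), with an unadjusted p of 0.00218 and an adjusted p of 0.0809 in edgeR, and an adjusted p of 0.00657 in DESeq2, which became 0.0513 without MOV control replicate 4. Sham mimic libraries were at 7.31, 32.2, 14.8, 13.1 and 22.4 CPM. MOV mimic libraries were at 33.0, 22.7, 21.8, 56.0 and 13.4 CPM. The mimic groups overlapped widely, with sham mimic replicate 2 above 3 of the MOV mimic libraries. MOV against sham gave a log2 fold change of 0.71 (standard error 0.40, adjusted p = 0.472 in edgeR), and 0.34 without MOV mimic replicate 4.

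Across the 10 genes in the mimic muscles, edgeR called 0 for MOV against sham, out of 14918 genes of which 0% were called, and DESeq2 called 0 of the 10, against 0.845% of all genes called higher in MOV. At an unadjusted p under 0.05 in edgeR, 2 of the 10, Chrna1 and Chrnd, were higher in MOV mimic and 0 lower, against 7.31% of all genes higher and 6.08% lower. None of the 10 had groups without overlap (0 of 10, with 0.992% of all genes above sham in every library). The median log2 fold change was 0.37 over the 10 genes and 0.02 over all genes. Without MOV mimic replicate 4, 1 of the 10 (Chrne) was higher at that threshold and 0 lower, against 10.7% of all genes in either direction, and the median over the 10 was 0.30.

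**Figure D2:**
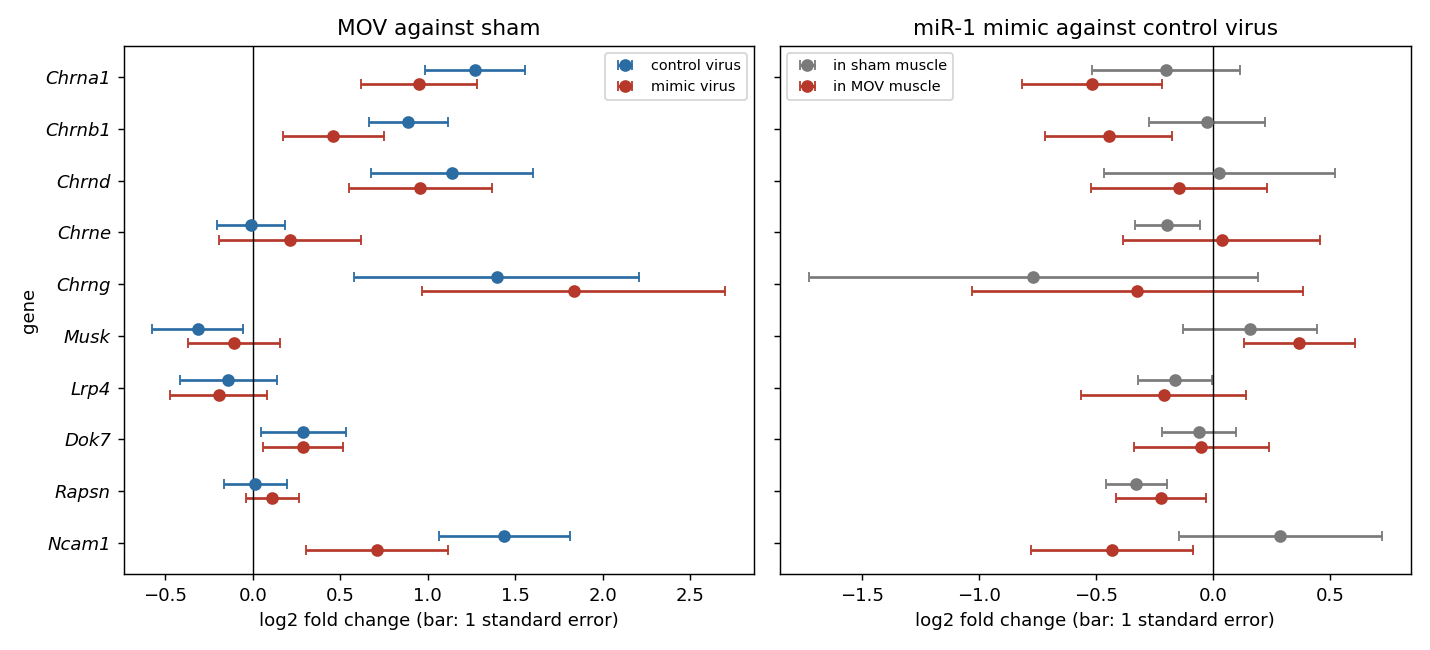
Log2 fold change (x axis) of each gene (y axis) from edgeR, for MOV against sham with the control and the mimic virus (left) and for mimic against control virus in sham and in MOV muscles (right). Points are estimates and bars 1 standard error on 5 libraries per group; on the left Chrna1 is at 1.27 with the control virus and 0.95 with the mimic, and Chrne at -0.01 and 0.21.

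The mimic virus was compared with the control virus within each surgery, in fits that did not use a pairing of left and right muscles. With the replicate block of the closing section, 2 of the 10 had an unadjusted p under 0.05 in edgeR in MOV muscles, against 7.23% of all genes. In MOV muscles edgeR called 0 of the 10 genes and 0% of the 15220 genes tested, and at an unadjusted p under 0.05 it had 0 of the 10 and 4.21% of all genes. The log2 fold changes of MOV mimic against MOV control ran from -0.52 for Chrna1 (standard error 0.30, adjusted p = 0.999 and unadjusted p = 0.108 in edgeR) to 0.37 for Musk (standard error 0.24). Their median was -0.22, against -0.01 over all genes. In the same comparison 2 of the 7 leukocyte markers tested, Ptprc (1.09 on the log2 scale, standard error 0.39) and Itgam (1.18, standard error 0.42), both named after their values were seen, were higher with the mimic at an unadjusted p under 0.05 (1.06 and 0.93 without MOV mimic replicate 4), and the median of the 7 was 0.50. The 9 markers of muscle precursors and the 8 of nerve and Schwann cells had 0 at that threshold, with medians of -0.39 and -0.41. Their part in the log2 fold changes of the 10 genes was not tested. Without MOV mimic replicate 4, the library with the highest Chrna1, Chrnb1 and Ncam1 of its group, the values were -0.84 for Chrna1, -0.64 for Chrnb1 and -0.79 for Ncam1. Their unadjusted p from edgeR were then 0.00575, 0.0321 and 0.0216, with an adjusted p of 0.955 for each. These were 3 of the 10 genes, against 4.79% of all genes at that threshold in the same fit, while Musk was at 0.42 and the median over the 10 was -0.38. In sham muscles 0 of the 10 genes and 0% of 14746 genes were called by edgeR. Rapsn, at 28, 21.7, 22.9, 18.9 and 18.9 CPM in sham mimic and 32.8, 29.5, 26.4, 25.5 and 24.1 CPM in sham control, had a log2 fold change of -0.33 (standard error 0.13), with an unadjusted p of 0.0286 and an adjusted p of 1.00 in edgeR. It was the only member of the 10 at an unadjusted p under 0.05 there, against 1.72% of all genes, and the groups overlapped.

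Whether overload acted differently under the mimic was tested by a term for surgery by virus, fitted to all 20 libraries. Of the 10 genes 0 were called, as were 0% of 16166 genes, and 0 of the 10 had an unadjusted p under 0.05, against 2.64% of all genes. The interaction was -0.72 (standard error 0.59, unadjusted p = 0.236 in edgeR) for Ncam1, -0.43 (standard error 0.39) for Chrnb1, -0.32 (standard error 0.47) for Chrna1 and 0.44 (standard error 1.27) for Chrng, all on the log2 scale. Without MOV mimic replicate 4 the values were -1.09 (unadjusted p = 0.0752 in edgeR) for Ncam1, -0.62 for Chrnb1, -0.65 for Chrna1 and 0.075 for Chrng. The value for Chrng turned to -0.93 without sham control replicate 3 and was 1.13 without sham mimic replicate 2. With all 20 libraries the standard error for Chrng exceeded its value. A difference in the response to overload between the viruses was not shown by this test. It took the libraries as independent and did not use a pairing of left and right muscles, and fits with a replicate block are in the closing section.

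Short stretches of promoter are shown because E-boxes, the binding motif of MyoD, myogenin and their relatives, are a known feature of the genes for receptor subunits, and because the N-box, bound by ETS factors, is known from genes that are transcribed at the junction. RefSeq promoters on GRCm38.p6 (250 bases before to 50 after a start annotated there) were at hand for 6 of the 10 genes, namely Chrna1, Chrnb1, Chrne, Chrng, Musk and Dok7. For Chrna1 and Chrng that start was the first base of the gene span given above, whereas the start used lay further into the span by 29 bases for Chrnb1, 19 for Chrne, 233 for Musk, and 195 and 501 in the 2 windows of Dok7. The Musk window therefore began 17 bases before the span, and its E-box lay inside the annotated gene. The windows were searched for the E-box letters CAGCTG, which read the same on both strands, and for the N-box CCGGAA on both strands. The motif is in capitals with 10 bases on either side, each written in the direction of the gene.
Chrng, chr1:87205646-87205671, + strand: atcctgggaaCAGCTGacaatgcagt
Chrng, chr1:87205669-87205694, + strand: agtggtcagaCAGCTGgtggggccag
Chrna1, chr2:73580415-73580440, - strand: gtgggcagctCAGCTGtcatgcgggc
Chrna1, chr2:73580367-73580392, - strand: gctgtggagtCAGCTGgcttccaagg
Musk, chr4:58285884-58285909, + strand: gagttctcccCAGCTGgccacgtcca
Chrne, chr11:70619317-70619342, - strand: caggatggggCAGCTGcctcccccac
Chrne, chr11:70619255-70619280, - strand: caaacctagcCCGGAActaacaccct
Chrng and Chrna1 each held 2 of these E-boxes, Musk and Chrne held 1 each, and the N-box letters were found in Chrne only, among the 6 genes searched. Dok7 and Chrnb1 had neither in this window. Of 32851 promoters of the same length, 16.3% held the E-box letters and 14.9% the N-box letters, so a match describes the sequence and is no evidence of binding.

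Myogenin (Myog), the E-box binding factor that rises in denervated and in regenerating fibres, was at 3.81, 15.2, 27.9, 22.1 and 5.78 CPM in sham control. In MOV control Myog was at 51.2, 32.2, 34.6, 66.6 and 12.9 CPM. These groups overlapped, since MOV control replicate 5 lay below 3 of the sham control libraries. This gave a log2 fold change of 1.40 (standard error 0.52, adjusted p = 0.174 and unadjusted p = 0.0177 in edgeR). In sham mimic it was at 3.27, 25.3, 9.05, 13.4 and 8.32 CPM. In MOV mimic it was at 37.9, 29.1, 35.6, 62.5 and 5.90 CPM, a log2 fold change of 1.52 (standard error 0.55, adjusted p = 0.306 in edgeR), and 1.18 without MOV mimic replicate 4. Replicate 2 was again the highest of sham mimic, and replicates 4 and 5 the highest and the lowest of MOV mimic. MyoD (Myod1) had log2 fold changes of 0.52 (standard error 0.26) with the control virus and 0.52 (standard error 0.24) with the mimic, with adjusted p of 0.300 and 0.376 in edgeR, the latter change being 0.32 without MOV mimic replicate 4.

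Within a group the same libraries were high or low for several of the 10 genes. MOV mimic replicate 4 was the highest of its group in Chrna1, Chrnb1, Chrnd, Chrng, Dok7 and Ncam1, and the lowest in Chrne, Rapsn and Lrp4. MOV mimic replicate 5 was the lowest in the same 6 genes. Sham mimic replicate 2 was the highest of its group in Chrna1, Chrnb1, Chrnd, Chrng and Ncam1, and sham control replicate 3 in Chrna1, Chrnb1, Chrnd and Chrng. Sham control replicate 1 was the lowest in Chrna1, Chrnb1, Chrng and Ncam1 and the highest in Musk, Rapsn, Lrp4 and Dok7. In sham control replicate 1 and sham mimic replicate 1, Musk, Rapsn, Lrp4 and Dok7 were each at the top of the group.

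**Figure D3:**
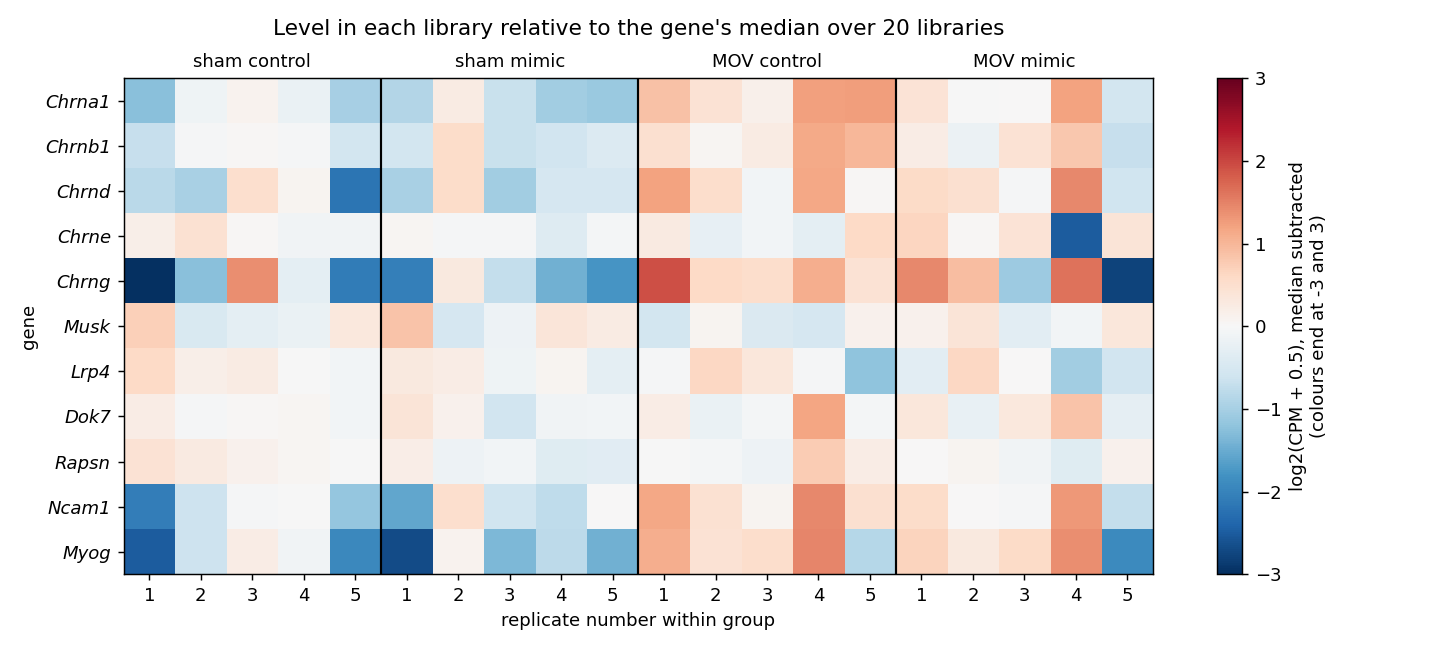
Level of the 10 genes and Myog (rows) in each of 20 libraries (columns, grouped and numbered by replicate) as log2(CPM + 0.5) with the median over 20 libraries subtracted, from blue (lower) to red (higher). Chrna1, Chrnd, Chrng, Ncam1 and Myog are red together in MOV mimic replicate 4 and blue together in MOV mimic replicate 5, and Chrne is blue in MOV mimic replicate 4.

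Markers of other cells moved in part with these libraries. Summed over 9 markers of muscle precursors and newly formed fibres (Pax7, Myf5, Myod1, Cdh15, Calcr, Mymk, Mymx, Myh3 and Myh8), the level was between 85.8 and 685 CPM in sham control and between 302 and 1343 CPM in MOV control. In the mimic muscles it ran from 100 to 1593 CPM in sham, the top being replicate 2, and from 89.0 CPM in replicate 5 to 1211 CPM in replicate 4 of MOV. None of the 9 was at 0 in a whole group, 1 of 9 (Pax7, named after its values were seen, with a log2 fold change of 1.17 and an adjusted p of 0.0630 in edgeR) was higher in MOV control at an unadjusted p under 0.05, as were 9.06% of all genes, and 0 of 9 in MOV mimic. The part of these cells in the levels of Chrna1, Chrnb1, Chrnd, Chrng and Ncam1 was not tested. Markers of nerve and Schwann cells, the other cells at a junction, summed over 12 genes to between 17.9 and 61.6 CPM in 19 libraries and to 103 CPM in MOV control replicate 5. Of these 12 markers, Chat, the enzyme of motor neurons that makes acetylcholine, was at 0 in all libraries. Nefl and Nefm were at 0 in both MOV groups and in most sham libraries. They had 11 counts in 3 and 15 counts in 4 of the 20 libraries, with at most 0.38 and 0.26 CPM. Of the markers tested, 0 of 9 for control and 0 of 7 for mimic muscles had an unadjusted p under 0.05 in edgeR. Markers of leukocytes summed over 9 genes to between 173 and 747 CPM in sham control and between 177 and 645 CPM in MOV control, with 0 of 7 tested markers at an unadjusted p under 0.05. With the mimic, 3 of 7 were higher in MOV at that threshold (Ptprc, C1qa and Cd3e, named after their values were seen), as were 7.31% of all genes, and the sums were between 171 and 706 CPM in sham and between 361 and 732 CPM in MOV. The part of leukocytes in the levels of the 10 genes was not tested.

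The genes whose levels followed those of Chrng most closely were sought among 16166 genes, by the root mean square difference of log2 levels over 20 libraries after each gene's own mean was removed. For Chrng, whose own root mean square deviation was 1.96, they were Mymk at 0.63, Tnnt2 at 0.75 and Myl4 at 0.78. Mymk encodes myomaker, needed for the fusion of myoblasts, while Tnnt2 and Myl4 encode troponin T and a myosin light chain of heart and developing muscle. Mymk was at 0.233, 5.02, 20, 9.83 and 1.21 CPM in sham control. In MOV control Mymk was at 32.9, 17.3, 22.6, 29.4 and 6.87 CPM. In MOV mimic it was at 17.4, 13.2, 12.7, 36.6 and 0.634 CPM. Like Chrng, Mymk was lowest in sham control replicate 1 and MOV mimic replicate 5 of these groups. Of the other 9 genes, Ncam1 at 1.25 and Chrnd at 1.35 were nearest to Chrng, and Musk at 2.24 and Chrne at 2.21 were farthest. For Chrne the nearest were Trim68 at 0.22, Rabepk at 0.28 and the overlapping 4930544D05Rik at 0.30, against its own deviation of 0.66. These 3 were low in MOV mimic replicate 4 as well, at 1.40, 1.18 and 0.66 CPM, and that library therefore weighs heavily in the likeness.

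Other genes of the junction were read from a list of 30 beside the 10. In edgeR 0 of the 30 were called, and at an unadjusted p under 0.05 there were 9 higher and 2 lower in MOV control, and 1 higher and 2 lower in MOV mimic. Over all genes the shares at that threshold were 9.06% higher and 9.15% lower in MOV control, and 7.31% and 6.08% in MOV mimic. The median log2 fold change of the 30 was 0.18 in control and 0.04 in mimic muscles, against 0.04 and 0.02 over all genes. Agrin (Agrn), which the nerve and the fibre both make, was between 18.7 and 29.0 CPM in sham control and between 21.4 and 37.9 CPM in MOV control, with a log2 fold change of 0.38 (standard error 0.18, adjusted p = 0.296 in edgeR). Ache, the esterase that clears acetylcholine, had 0.20 (standard error 0.17), and Colq, the collagen tail that anchors it, had 0.67 (standard error 0.28, adjusted p = 0.239 in edgeR). Utrn, for the utrophin of the postsynaptic membrane, had 0.40 (standard error 0.17, adjusted p = 0.239 in edgeR). In the mimic muscles the log2 fold changes were 0.49 for Agrn, 0.32 for Ache, 0.43 for Colq and 0.13 for Utrn, and without MOV mimic replicate 4 they were 0.32, 0.40, 0.54 and -0.072. Without that library the median of the 30 was -0.055, against 0.02 over all genes. Erbb2, a receptor for neuregulin that was named after its values were seen, was between 3.94 and 7.77 CPM in sham control and between 8.42 and 12.5 CPM in MOV control, with a log2 fold change of 0.81 (standard error 0.21, adjusted p = 0.0788 in edgeR). With the mimic it overlapped, at 3.58 to 8.87 CPM in sham and 6.09 to 12.4 CPM in MOV. Pdzrn3, also named after its values were seen, went the other way. It was between 76.6 and 141 CPM in sham control and between 54.4 and 86.0 CPM in MOV control, with overlap.

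Of 12 genes known to answer to loss of the nerve, 0 were called in edgeR, and at an unadjusted p under 0.05 there were 5 higher and 2 lower in MOV control and 3 higher and 0 lower in MOV mimic, beside the shares of all genes just given. Without MOV mimic replicate 4, 0 of the 12 were at that threshold in the mimic muscles, against 10.7% of all genes in either direction, and their median was 0.19, against 0.02 over all genes. The genes below were named after their values were seen. In control muscles Runx1, a transcription factor, had a log2 fold change of 1.44 (standard error 0.43), and Gadd45a, a growth arrest gene, had 0.99 (standard error 0.29). Fbxo32, the ubiquitin ligase atrogin-1 of atrophy, went the other way, at -0.91 (standard error 0.21, adjusted p = 0.0630 in edgeR), with all 5 MOV control libraries below all 5 sham control libraries. Dach2, a repressor of Myog, had -1.38 (standard error 0.48). The median log2 fold change was 0.40 in control and 0.24 in mimic muscles, against 0.04 and 0.02 over all genes. Of the 11 nicotinic subunit genes of neurons and other cells, Chrna10 and Chrnb2 passed the filter on low counts, with at most 8.77 and 2.22 CPM, and Chrna3, Chrna6, Chrnb3 and Chrnb4 had no counts in any of the 20 libraries, which is below a floor of 3 counts per library.

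Sites for miR-1 were looked for in the longest annotated 3′ UTR of each of the 10 genes (GENCODE vM1 on NCBIM37), as letters that pair with the miR-1 seed, with CATTCC as the core. They are shown because the mimic virus carries miR-1, and positions count from the first base of the UTR. Ncam1 held the only sites of 7 bases among the 10 genes, in capitals with 8 bases on either side.
Ncam1, UTR bases 149 to 155: acacaaacACATTCCtctagtgt
Ncam1, UTR bases 2239 to 2245: gcccctttCATTCCAgggcctgc
Chrna1 held 3 matches and Chrnd held 1 match to the core alone, and the other 7 genes held none. Of 20007 genes with a UTR, 27.4% had the core and 9.12% had ACATTCC, shares that were not matched for UTR length. Ncam1 and Chrna1 had the longest UTRs of the 10 genes, at 3291 and 2961 bases, while the 7 genes without a match had 211 to 2140 bases. Ncam1 and Chrna1, with their sites, had log2 fold changes of MOV mimic against MOV control of -0.43 (standard error 0.35, adjusted p = 0.999 in edgeR) and -0.52 (standard error 0.30). Chrnd, with its core match, had -0.15 (standard error 0.38), and the 7 genes without a match ran from -0.45 for Chrnb1 (standard error 0.27) to 0.37 for Musk (standard error 0.24). In sham muscles the values were 0.29 (standard error 0.43) for Ncam1, -0.20 (standard error 0.32) for Chrna1 and 0.03 (standard error 0.49) for Chrnd, and the 7 genes without a match ran from -0.77 for Chrng (standard error 0.96) to 0.16 for Musk (standard error 0.29). Without MOV mimic replicate 4 the values in MOV muscles were -0.79 for Ncam1, -0.84 for Chrna1 and -0.51 for Chrnd, and from -0.69 for Chrng to 0.42 for Musk among the 7. Genes with and without a match were not tested against each other.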

How the data were processed

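RNA-seq was done on 20 plantaris libraries, 5 per group. The authors deposited raw counts per Ensembl gene in a table for control and another for mimic libraries. Per the labels and the study's methods, reads were checked with FastQC 0.11.9, trimmed with Trim Galore 0.6.10 (cutadapt 4.4), aligned to GRCm38 with HISAT2 2.0.5 and counted with featureCounts 1.5.0-p3. The annotation release, strand setting and treatment of reads with several alignments are not given in the sources used here.

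The members and lists were chosen with earlier results of these data known, and the genes named are the 10 members, Agrn, Ache, Colq, Utrn, Myog, Myod1 and the 3 nearest in pattern to Chrng and Chrne, others being marked as chosen after their values were seen. Symbols were found for 32640 of 54532 genes. edgeR 4.0.16 in R 4.3.3 (TMM, filterByExpr, quasi-likelihood test, two-sided, Benjamini-Hochberg, threshold 0.05) was fitted to the 10 libraries of a comparison, and to 20 for the interaction. Levels were scaled by TMM over 20 libraries. DESeq2 1.42.0 and the other alternatives are in the closing section. The study's methods give 5 mice per surgery, and the labels do not name the mouse of a library. On simulated counts for MOV control against sham control (14653 genes), edgeR recovered 42.9% of genes changed by 1 on the log2 scale with 7 false calls over all fold sizes, and DESeq2 60.2% with 25.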

Additional observations from a re-analysis of the deposited data

Results flagged for a closer look

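Of 44 sets of 5 libraries (11 genes in 4 groups), 6 held a library far from the others (Dixon's gap to range ratio over 0.71), and chance alone flags about 1 in 20. In sham mimic, replicate 2 was far above the other libraries for Chrna1 at 52.5 CPM, for Chrnb1 at 112 CPM and for Chrnd at 12 CPM. In the same group Chrne was far lower in replicate 4, at 14.7 CPM, than in the others. Sham control replicate 3 was far above its group for Chrng, at 10.8 CPM. MOV control replicate 4 was far above its group for Dok7, at 49.0 CPM. The causes were not tested.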

How the results depend on the processing

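Direction held for Chrna1, Chrnb1, Chrnd, Chrng and Ncam1 of MOV against sham with either virus under every alternative run. With single libraries left out, their log2 fold changes in control muscles ran from 1.12 to 1.43 for Chrna1, 0.72 to 1.00 for Chrnb1, 0.88 to 1.53 for Chrnd, 1.02 to 2.76 for Chrng and 1.203 to 1.63 for Ncam1, and in mimic muscles from 0.62 to 1.27, 0.26 to 0.75, 0.59 to 1.34, 1.46 to 2.53 and 0.34 to 1.02. Calls depended on the method. For MOV control against sham control, over all genes, edgeR called 1, DESeq2 914, edgeR without a filter on low counts 388, with all 20 libraries in the fit 36, and between 0 and 426 with a library left out (426 without sham control replicate 3 and 318 without MOV control replicate 5). Of the 10 genes, DESeq2 called 3 and edgeR without a filter 3, namely Chrna1, Chrnb1 and Ncam1 in each, and edgeR called between 0 and 1 with a library left out, Chrna1 without sham control replicate 3. DESeq2 leave-one-out fits, added after seeing the data, called between 1 (Chrna1, without MOV control replicate 4, where 3.26% of all genes were called) and 5 (without sham control replicate 3, where 9.21% were). For MOV mimic against sham mimic the calls over all genes were 0 in edgeR, 221 in DESeq2, 1 without a filter, 3 with all 20 libraries and 0 to 101 with a library left out (101 without MOV mimic replicate 5). Of the 10 genes DESeq2 called 0 to 3 with a library left out, the 3 without MOV mimic replicate 5, where it called 8.69% of all genes against 1.48% with all libraries. At an unadjusted p under 0.05 edgeR had 1 to 5 of the 10 with a library left out, the 5 without sham mimic replicate 2 (12.4% of all genes) and without MOV mimic replicate 5 (21.1%), and 1 with all 20 libraries in the fit (15.5%), against 13.4% of all genes with the 10 libraries. For MOV mimic against MOV control DESeq2 called 3 genes and edgeR on 20 libraries 1, and for surgery by virus DESeq2 called 1, none of them among the 10.

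The log2 ratio of Chrng to Chrne ranged with a library left out from 1.81 to 3.88 for MOV control against sham control, from -2.15 to 0.20 for MOV mimic against MOV control and from -0.50 to 1.56 for sham mimic against sham control. Other fold changes changed sign when a library was left out. For MOV control against sham control the ranges were -0.18 to 0.089 for Chrne, -0.19 to 0.088 for Rapsn, -0.34 to 0.056 for Lrp4 and -0.067 to 0.39 for Dok7, and Rapsn was at -0.014 without the filter. For MOV mimic against sham mimic Musk ran from -0.26 to 0.090. For MOV mimic against MOV control the ranges were -0.51 to 0.037 for Chrnd, -0.12 to 0.31 for Chrne, -0.69 to 0.048 for Chrng and -0.24 to 0.28 for Dok7. For sham mimic against sham control they were -0.32 to 0.071 for Chrnb1, -0.35 to 0.44 for Chrnd, -1.45 to 0.62 for Chrng, -0.045 to 0.36 for Musk, -0.17 to 0.059 for Dok7 and -0.020 to 0.50 for Ncam1. The surgery by virus term of Chrng ran from -0.93 to 1.13 and that of Ncam1 from -1.09 (without MOV mimic replicate 4) to -0.41 (without sham mimic replicate 2). The causes were not tested.

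Equal replicate numbers are not stated to be the same mouse. The correlation of deviations of same-numbered libraries was between 0.03 and 0.32 for the MOV groups, each library there correlating best with its own number (5 of 5), and between 0.01 and 0.66 for the sham groups (3 of 5). With the replicate block, edgeR called 0 of the 10 genes in each comparison, and the calls over all genes stayed at 1 for MOV control against sham control and 0 elsewhere. For MOV mimic against MOV control, 2 of the 10 then had an unadjusted p under 0.05 in edgeR, against 7.23% of all genes (4.21% without the block), Ncam1 at -0.50 (adjusted p = 0.586, unadjusted p = 0.0124) and Chrna1 at -0.56 (adjusted p = 0.637, unadjusted p = 0.0291). Both were lower with the mimic in 5 of 5 same-numbered pairs, Musk was higher in 5 of 5, and the other 7 genes were lower in 2 to 4 of 5, while 4.70% of all genes were lower and 4.01% higher in 5 of 5. In sham, Rapsn was lower in 5 of 5, as were 3.36% of all genes, and the other 9 genes in 2 to 4 of 5. Rapsn in sham (-0.33, unadjusted p = 0.00607 and adjusted p = 1.00 in edgeR) and the surgery by virus term of Ncam1 (-0.80, unadjusted p = 0.0486 and adjusted p = 0.960 in edgeR) were also under 0.05 before adjustment, as were 3.00% and 4.73% of all genes. Under the block the log2 fold change was -0.021 for Rapsn in MOV control against sham control, -0.044 and -0.17 for Chrne in MOV mimic against sham mimic and against MOV control, and -0.72 for Chrng in the surgery by virus term. The log2 ratio of Chrng to Chrne in MOV control against sham control, at 3.00, had p = 0.125 in the exact sign-flip test with the block, whose smallest possible p is 0.0625. Fits with the block were made on all libraries only, MOV mimic replicate 4 included. Sham and MOV mice differ, so that between surgeries the block matches no mouse.

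Chrng had 0 to 314 reads per library, and its log2 fold changes in the 4 edgeR comparisons between pairs of groups, with all libraries and no block, had standard errors between 0.71 and 0.96. Fits without MOV mimic replicate 4 for genes and lists beyond the 10 were added after seeing the data.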
